A study of Mus with 8 samples.

Results

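The genes described here are 10 components of the circadian clock, chosen by name from the table of read counts: the activators Clock and Npas2, the repressors Per1, Per2, Per3, Cry1 and Cry2, the nuclear receptors Nr1d1 and Nr1d2, and the output factor Dbp. They are 10 of 24013 genes in the table. Of them, 9 had enough counts to be tested, and Npas2 did not.

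RNA was sequenced from 3T3-L1 cells, mouse preadipocytes kept as a line, which turn into fat cells when treated with hormones. All cells carried a lentivirus and had been selected in puromycin: C cells expressed a scrambled shRNA, and P cells an shRNA against the homeodomain factor Prep1 (Prep1 down-regulation, DR). Cells were harvested at day −2, in growth medium with calf serum and before any inducer, or at day 1, after the medium had been replaced with one that held 1 µM dexamethasone (a glucocorticoid), 0.5 mM IBMX (a phosphodiesterase inhibitor, which raises cAMP), 1 µg/ml insulin and fetal bovine serum. Each of the 4 conditions had 2 biological replicas, which makes 8 libraries. A single shRNA, named shRNA1 in the labels, stands for the knockdown in these libraries. Hormones, serum and days in culture changed together between day −2 and day 1 and cannot be told apart. The hour of the day at which cells were lysed is not given in the sources used here, and each condition was sampled at a single time, so a level is that of one moment in any daily rhythm.

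The clock is a transcriptional feedback loop. CLOCK or NPAS2 binds DNA together with BMAL1, the product of Arntl, and activates the Per, Cry, Nr1d and Dbp genes, while PER and CRY proteins return to the nucleus and repress that activation. The REV-ERB receptors encoded by Nr1d1 and Nr1d2 repress Arntl and are opposed by the ROR receptors, and DBP and NFIL3 act in opposite directions on genes with D-box elements. Cultured fibroblasts keep such a loop, which serum, glucocorticoids and cAMP can reset, and Per1 and Per2 are known as early targets of these signals.

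The libraries held between 20428816 and 27614353 counts. A level is given as CPM, a count scaled to library size by TMM (trimmed mean of M values). Here 3 counts lie between 0.107 and 0.160 CPM, and this floor reflects counting error alone. Calls required an adjusted p under 0.1 in the quasi-likelihood test of edgeR, Benjamini-Hochberg adjusted over 13339 genes, together with a ratio of conditions over 2 or under 0.5. The replicas of P cells at day −2 stood apart: over 10904 genes with a mean of at least 50 counts, the log2 values of the replicas differed with an SD of 0.90 in this condition, against 0.20 to 0.33 in the others. Prep1 itself, listed as Pknox1, ranged from 26.5 to 28.1 CPM in C and from 17.3 to 18.3 CPM in P replicas before induction, and from 36.5 to 38.1 and 23.6 to 23.8 CPM after it. P replicas lay below C replicas on both days, by less than the ratio threshold.

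The cells were checked against markers. The 8 preadipocyte or fibroblast markers were present in every library, with summed levels of 16700 to 17800 CPM (C) and 21400 to 65700 CPM (P) before induction, and 25400 to 29300 CPM (C) and 17800 CPM (P) after it. The 6 mature adipocyte markers summed to 2.47 to 2.88 CPM (C) and 27.3 to 35 CPM (P) before induction, and to 1.89 to 2.11 CPM (C) and 142 to 143 CPM (P) after it, with 1 of the 6 under 1 CPM throughout. No marker of either list was at 0 in all libraries. The lists of 4 macrophage, 3 endothelial and 4 epithelial markers summed to at most 7.73, 1.33 and 3.31 CPM, with 2, 3 and 3 of their genes under 1 CPM in every library. The adipocyte markers move with the knockdown, and their part in the clock values below was not tested. In such bulk RNA, fewer cells of a type and less RNA per cell cannot be told apart.

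**Figure D1:**
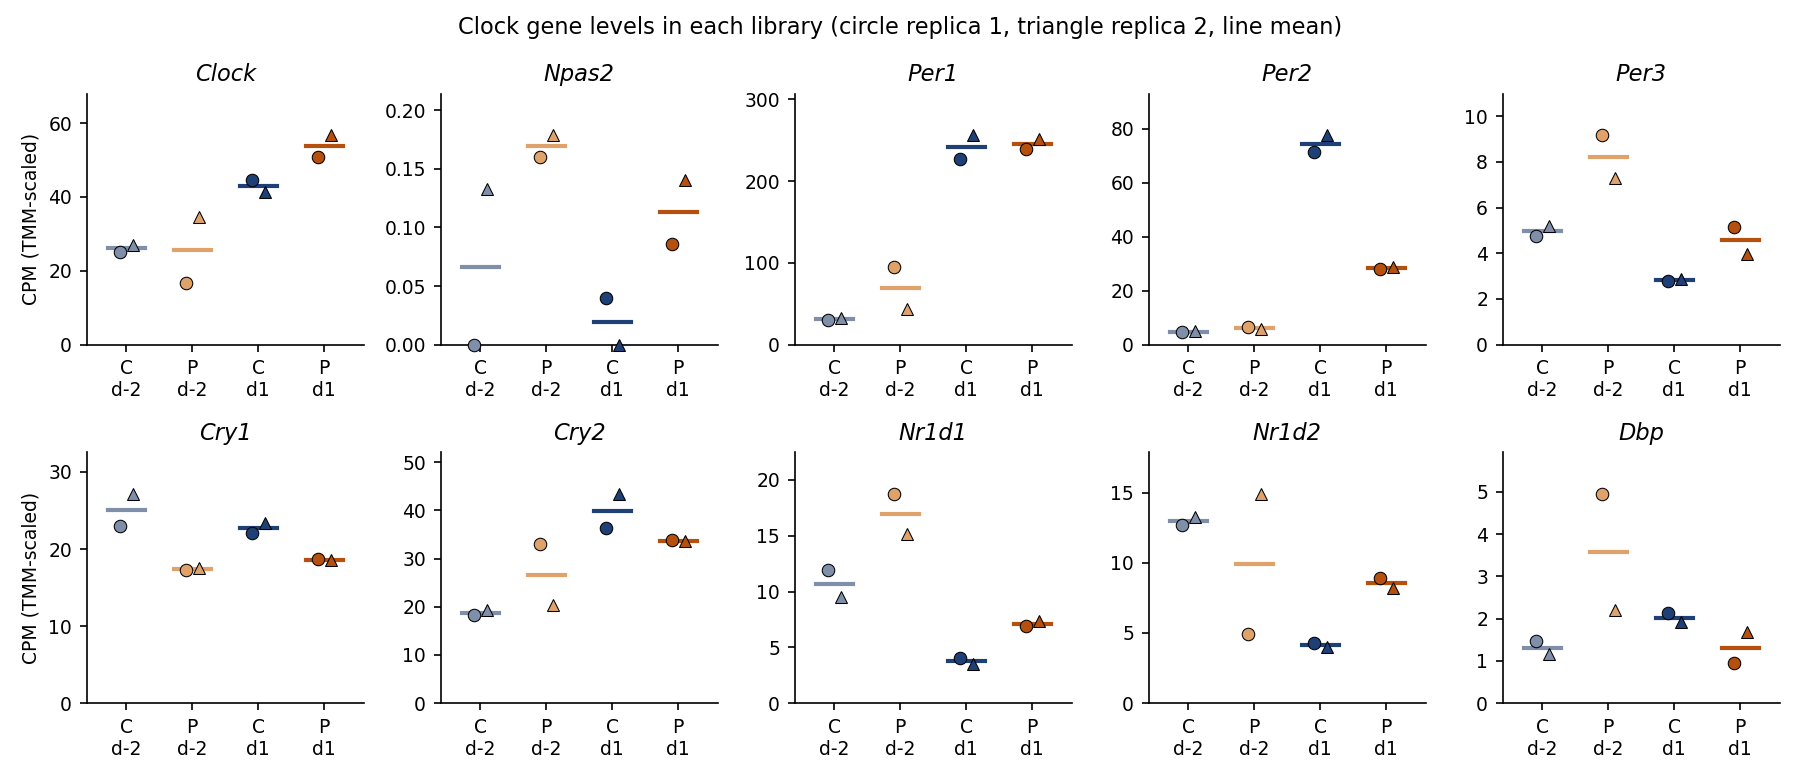
Level of each clock gene in CPM, on a linear axis of its own that starts at 0, in every library. Columns are C and P cells at day −2 (d-2) and day 1 (d1), circles replica 1, triangles replica 2 and lines their mean. Per1 and Per2 sit higher at day 1 in both cell types, Per2 is at 71.3 to 77.5 CPM in C cells and 28.2 to 28.6 CPM in P cells at day 1, and the points of P cells at day −2 lie far apart for Clock, Per1, Nr1d2 and Dbp.

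In C cells 3 of the 5 Period and cryptochrome genes were called higher with induction, and both REV-ERB genes were called lower. Cry1 and Per3 were not called, and Per3 lay lower at day 1 (log2 ratio −0.81). Of the 9 tested clock genes, 3 were called higher at day 1 (Per1, Per2 and Cry2) and 2 lower (Nr1d1 and Nr1d2), beside 10.7% of all tested genes called higher and 9.68% called lower. Their median log2 ratio was 0.62, against −0.01 over all tested genes. In P cells 3 were called higher (Clock, Per1 and Per2) and 2 lower (Nr1d1 and Dbp), beside 7.65% and 10.4% of all tested genes, with a median log2 ratio of 0.10 against 0.02. Per1, Per2 and Nr1d1 were called in both cell types, and these 6 calls stood under all 19 alternative settings tried. The remaining calls depended on single libraries, as given with each gene. The comparisons share libraries, so their values for a gene are not independent.

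Period genes encode repressors that carry the feedback of the loop. Per2 (NCBI gene 18627) had the largest induction ratio of the tested clock genes in C cells, and in P cells as well except without replica 1 of P cells at day −2, where Per1 stood at a log2 ratio of 2.48 and Per2 at 2.28. It had 4.58 and 5.14 CPM in the C replicas before induction and 71.3 and 77.5 CPM at day 1. For P cells the values were 6.44 and 5.82 CPM at day −2, then 28.2 and 28.6 CPM. The order of the conditions was thus uninduced C, uninduced P, induced P and induced C cells, with no overlap between any of them. The first neighbours in that order did not pass the test of their difference, and the others did. Per2 RNA rose 15.3-fold in C cells (log2 ratio 3.94, standard error 0.17, adjusted p = 6.16e-05, edgeR). It rose 4.64-fold in P cells (log2 ratio 2.21, standard error 0.16, adjusted p = 0.000355, edgeR).

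Per1 (NCBI gene 18626), like Per2 an early target of glucocorticoids and cAMP, was measured at 30.4 and 32.3 CPM in C replicas of day −2 and 227 and 256 CPM in those of day 1. Before induction the P replicas had 94.7 and 43.7 CPM, and after it 239 and 251 CPM. All 4 libraries of day 1 lay above all 4 of day −2, and at day 1 the values of P cells fell within those of C cells. Its RNA rose 7.70-fold in C cells (log2 ratio 2.95, standard error 0.35, adjusted p = 0.00163, edgeR) and 3.55-fold in P cells (log2 ratio 1.83, standard error 0.33, adjusted p = 0.011, edgeR). The P value depended on the replica of day −2: it was 2.48 without replica 1 and 1.38 without replica 2, called in both.

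Per3 (NCBI gene 18628), the Period gene least needed for rhythms in mice, went the other way in level. It stood at 4.74 and 5.18 CPM in the C replicas of day −2 and at 2.80 and 2.87 CPM in those of day 1. The P replicas stood at 9.16 and 7.28 CPM before induction and 5.17 and 3.97 CPM after it. The days did not overlap within either cell type, and P replicas at day −2 lay above every other library. The log2 ratio was −0.81 in C cells (standard error 0.24, adjusted p = 0.0489, edgeR) and −0.84 in P cells (standard error 0.24, adjusted p = 0.0464, edgeR), which was under the p threshold and short of the ratio threshold. Per3 was therefore not called.

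Cryptochromes are the partners of the Period proteins in repression. Cry2 (NCBI gene 12953) had 18.3 and 19.3 CPM in the C replicas before induction and 36.4 and 43.4 CPM at day 1. For P cells the values were 33.1 and 20.3 CPM at day −2, then 33.8 and 33.6 CPM. The C replicas did not overlap between days, and replica 1 of P cells at day −2 already lay close to both P replicas of day 1. Cry2 RNA rose 2.13-fold in C cells (log2 ratio 1.09, standard error 0.24, adjusted p = 0.0187, edgeR). In P cells the log2 ratio was 0.34, with a 95% interval from −0.23 to 0.91 (adjusted p = 0.344, edgeR), and it ran from 0.04 without replica 2 of P cells at day −2 to 0.72 without replica 1, not called in either. The call in C cells was lost without either C replica of day −2 (adjusted p = 0.131 without replica 1 and 0.116 without replica 2, edgeR) and without replica 2 of C cells at day 1 (log2 ratio 0.97, adjusted p = 0.104, edgeR), and with library totals in place of TMM, where the log2 ratio was 0.98.

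Cry1 (NCBI gene 12952), the other cryptochrome, was the member whose levels spread least over the 8 libraries. It was measured at 23.0 and 27.2 CPM in C replicas of day −2 and 22.1 and 23.3 CPM in those of day 1. Before induction the P replicas had 17.3 and 17.6 CPM, and after it 18.7 and 18.6 CPM. Every P library lay below every C library. The log2 ratio of induction was −0.14 in C cells, with a 95% interval from −0.51 to 0.23 (adjusted p = 0.549, edgeR), and 0.10 in P cells, with an interval from −0.28 to 0.47 (adjusted p = 0.68, edgeR).

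Nr1d1 (NCBI gene 217166) encodes REV-ERBα, a repressor of Arntl. It stood at 11.9 and 9.48 CPM in the C replicas of day −2 and at 4.06 and 3.50 CPM in those of day 1. The P replicas stood at 18.8 and 15.1 CPM before induction and 6.88 and 7.38 CPM after it. None of the 4 conditions overlapped, and P cells lay above C cells on both days. Its RNA fell with induction, to a level 2.83-fold lower in C cells (log2 ratio −1.50, standard error 0.22, adjusted p = 0.00377, edgeR) and 2.37-fold lower in P cells (log2 ratio −1.25, standard error 0.21, adjusted p = 0.0089, edgeR). The RefSeq list places Thra, a thyroid hormone receptor gene, over part of Nr1d1, and the use of the strand in counting is not given in the sources used here. Thra moved in the other direction in C cells, with a mean of 46.3 CPM at day −2 and 114.9 CPM at day 1 (log2 ratio 1.31, adjusted p = 0.0251, edgeR).

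Nr1d2 (NCBI gene 353187) encodes the related receptor REV-ERBβ. It had 12.7 and 13.3 CPM in the C replicas before induction and 4.26 and 4.02 CPM at day 1. For P cells the values were 4.90 and 14.9 CPM at day −2, then 8.89 and 8.17 CPM. The C replicas did not overlap between days, whereas both P values of day 1 lay between the P replicas of day −2, which differed 3.04-fold. In C cells its RNA fell to a level 3.14-fold lower (log2 ratio −1.65, standard error 0.47, adjusted p = 0.0414, edgeR). This call was lost without any single one of the 4 C libraries, at adjusted p = 0.153 and 0.17 without replicas 1 and 2 of day −2 and 0.184 and 0.201 without replicas 1 and 2 of day 1 (edgeR), with log2 ratios between −1.68 and −1.60. In P cells the log2 ratio was −0.23, with a 95% interval from −1.30 to 0.85 (adjusted p = 0.742, edgeR), and it was −0.82 without replica 1 of day −2 and 0.81 without replica 2. No direction can be given for Nr1d2 in P cells.

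Clock (NCBI gene 12753) encodes the activating partner of BMAL1. It was measured at 25.2 and 27.1 CPM in C replicas of day −2 and 44.7 and 41.4 CPM in those of day 1. Before induction the P replicas had 16.7 and 34.6 CPM, and after it 50.8 and 56.7 CPM. The 4 libraries of day 1 lay above the 4 of day −2. In C cells the log2 ratio of 0.72 was not called (standard error 0.31, adjusted p = 0.137, edgeR). In P cells Clock RNA rose 2.09-fold (log2 ratio 1.07, standard error 0.32, adjusted p = 0.055, edgeR). The difference between these responses was not called (log2 ratio 0.35, adjusted p = 0.653, edgeR). The P call ended without replica 1 of P cells at day −2, where the log2 ratio was 0.63 (it was 1.70 without replica 2), and without replica 1 or 2 of P cells at day 1 (adjusted p = 0.178 and 0.24, edgeR). It ended as well without any of the 4 C libraries, at adjusted p between 0.109 and 0.113 (edgeR), and in a fit of the P libraries alone (adjusted p = 0.222, edgeR).

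Npas2 (NCBI gene 18143), which can stand in for CLOCK, was at the limit of detection. Before induction it had 0 and 3 counts in the C replicas and 3 and 5 in the P replicas, and after it 1 and 0 (C) and 2 and 3 (P). With 5 counts at most, 0.178 CPM, it did not pass the filter and no ratio is given.

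Dbp (NCBI gene 13170), the output factor and a direct target of CLOCK, was low throughout. It stood at 1.47 and 1.15 CPM in the C replicas of day −2 and at 2.13 and 1.91 CPM in those of day 1. The P replicas stood at 4.95 and 2.21 CPM before induction and 0.940 and 1.68 CPM after it. These rest on 22 to 93 counts per library, and replica 1 of P cells at day −2 stands above all others. In C cells the log2 ratio of 0.62 was not called (standard error 0.48, adjusted p = 0.391, edgeR). In P cells Dbp RNA fell to a level 2.71-fold lower (log2 ratio −1.44, standard error 0.49, adjusted p = 0.0781, edgeR). The P call was lost without any one of 7 libraries. Its log2 ratio was −0.77 without replica 1 of P cells at day −2 (adjusted p = 0.212, edgeR). Without replica 1 or 2 of P cells at day 1 it was −1.07 or −1.91 (adjusted p = 0.337 and 0.162, edgeR), and without any one of the 4 C libraries the adjusted p was between 0.134 and 0.14 (edgeR). Dbp overlaps Sphk2, which had a mean of 54.5 CPM in P cells at day −2 and 29.6 CPM in C cells.

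**Figure D2:**
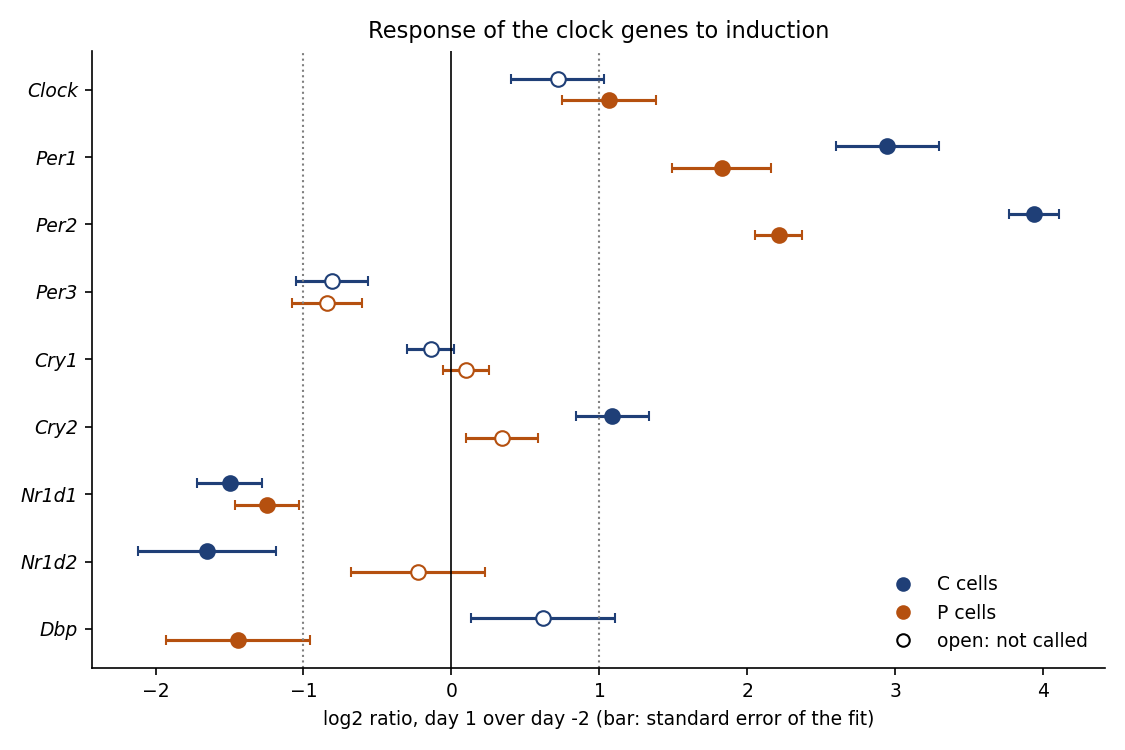
Log2 ratio of day 1 over day −2 for the 9 tested clock genes, in C cells and in P cells. Points are the fitted ratios, error bars 1 standard error of the fit to all 8 libraries, dotted lines a ratio of 2 or 0.5, and filled points are called genes. Per2 lies at 3.94 in C cells and 2.21 in P cells with error bars that do not meet, whereas for Per3 and Nr1d1 the values of the cell types lie close together.

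The response of Per2 to induction differed between the cell types. Of the 9 tested clock genes it was the only one whose interaction, the log2 ratio of induction in P cells minus that in C cells, was called: 0 were called higher and 1 lower, beside 0.435% and 1.93% of all tested genes. At an unadjusted p under 0.05 there were 3 of 9, and DESeq2 called 1. No share of all tested genes is given beside these counts, so they are not read against a background. The interaction of Per2 was −1.72 (standard error 0.22, 95% interval −2.24 to −1.21, adjusted p = 0.02, edgeR), which makes the ratio of induction 3.30-fold smaller in P cells. Its value was −1.68 without replica 1 of P cells at day −2 and −1.80 without replica 2. Each of these fits leaves 1 library in the condition whose replicas differed most. Without replica 2 a large share of all tested genes is called as well, as given with the processing. That the Per2 call stood in these fits is therefore not read as support for it. The Per2 call was lost without any one of the other 6 libraries, with values between −1.81 and −1.64.

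For the other 8 tested members the interaction was not called in the fit to all libraries. Dbp had the largest fitted value, −2.06 (standard error 0.69, adjusted p = 0.259, edgeR), followed by Nr1d2 at 1.42 (adjusted p = 0.364, edgeR) and Per1 at −1.12 (adjusted p = 0.341, edgeR). Clock at 0.35, Nr1d1 at 0.25, Cry1 at 0.24 and Per3 at −0.04 lay closer to 0, and Cry2 was at −0.75 (adjusted p = 0.365, edgeR). Calls made in a single cell type, those of Cry2 and Nr1d2 in C cells and of Clock and Dbp in P cells, are therefore not shown to differ between the cell types. These values moved with the P replicas of day −2. Without replica 2 the interaction was 0.97 for Clock, −1.57 for Per1, −1.06 for Cry2, 2.45 for Nr1d2 and −2.53 for Dbp. Without replica 1 it was −0.11 for Clock, −0.49 for Per1, −0.39 for Cry2, 0.81 for Nr1d2 and −1.41 for Dbp. The values listed without replica 2 passed the threshold for the interaction, and so did that of Nr1d2 without replica 1. Such a fit leaves 1 library in that condition, and without replica 2 a large share of all tested genes passes as well. These are therefore not read as calls.

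Before induction, P cells differed from C cells by 1 called clock gene. Per1 was called higher and none lower, beside 4.83% and 2.15% of all tested genes, and the median log2 ratio of the 9 members was 0.50 against 0.01. At an unadjusted p under 0.05 there were 5 of 9, and DESeq2 called 2, Per1 and Dbp. The shares above do not apply to these counts, which have no share of all tested genes beside them. Per1 had 2.20-fold more RNA in P cells (log2 ratio 1.14, standard error 0.33, adjusted p = 0.0988, edgeR), and both P replicas, at 94.7 and 43.7 CPM, lay above the C replicas. The call rested close to the threshold and was lost in 13 of 19 alternatives. It was lost without replica 1 of P cells at day −2, where the log2 ratio was 0.49 (adjusted p = 0.0321, edgeR), without replica 1 or 2 of C cells at day −2 (adjusted p = 0.419 and 0.437, edgeR), and without any of the 4 libraries of day 1 (adjusted p between 0.182 and 0.2, edgeR). It was lost with library totals (log2 ratio 0.90) and in a fit of the day −2 libraries alone (adjusted p = 0.372, edgeR). The log2 ratio was 1.59 without replica 2 of P cells at day −2, a fit that leaves 1 library in that condition.

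The other members were not called at day −2. Where P replicas lay on one side of the C replicas is given by gene. With 2 replicas in each condition this is a weak sign. Its share over all tested genes is not given, so it is not read as a result about the clock genes. Per2 (log2 ratio 0.33, adjusted p = 0.237, edgeR), Per3 (0.73, adjusted p = 0.123), Cry2 (0.50, adjusted p = 0.241), Nr1d1 (0.66, adjusted p = 0.12) and Dbp (1.43, adjusted p = 0.133) lay higher in both P replicas, and Cry1 lay lower (−0.53, adjusted p = 0.105). Cry2 was at 0.12 without replica 1 of P cells and 0.81 without replica 2, and Dbp at 0.76 and 1.90. The P replicas of Clock and of Nr1d2 lay on both sides of the C replicas. The log2 ratio of Clock was −0.02, with a 95% interval from −0.77 to 0.72, and it was 0.41 without replica 1 of P cells and −0.65 without replica 2. That of Nr1d2 was −0.38 (adjusted p = 0.587, edgeR), 0.21 without replica 1 of P cells and −1.41 without replica 2. Dbp and Nr1d2 passed both thresholds without replica 2. That fit leaves 1 library in P cells, and many more of all tested genes pass as well, as given with the processing. It is therefore not read as a result about these genes.

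The spread between the P replicas of day −2 ran through the clock genes unequally. The higher replica exceeded the lower 3.04-fold for Nr1d2, 2.24-fold for Dbp, 2.17-fold for Per1, 2.07-fold for Clock and 1.63-fold for Cry2. Clock and Nr1d2 were higher in replica 2, and Per1, Cry2 and Dbp in replica 1. In the other 3 conditions the ratio between replicas reached at most 1.30 for the tested members other than Dbp, which reached 1.79 in P cells at day 1.

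After induction, Per2 was lower in P cells. It was 1 of 9 tested members called lower and none was called higher, beside 2.23% and 1.83% of all tested genes, with a median log2 ratio of 0.02 against 0.01. At an unadjusted p under 0.05 there were 3 of 9, and DESeq2 called 1, counts without a share of all tested genes beside them. Per2 RNA was 2.62-fold lower in P than in C cells at day 1 (log2 ratio −1.39, standard error 0.15, adjusted p = 0.00641, edgeR), with 28.2 and 28.6 CPM against 71.3 and 77.5 CPM. The call was lost without replica 1 of P cells at day 1 (log2 ratio −1.38, adjusted p = 0.131, edgeR) and without replica 2 (log2 ratio −1.41, adjusted p = 0.122, edgeR), and held in the other 17 alternatives. At day −2 Per2 had not been lower in P cells, and the log2 ratio there was 0.33.

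Per1, the other strongly induced Period gene, reached overlapping levels in both cell types, with a log2 ratio of 0.02 and a 95% interval from −0.75 to 0.79. Both REV-ERB genes lay higher in P cells at day 1 without being called. Nr1d1 passed the p threshold and not the ratio threshold (log2 ratio 0.91, 1.88-fold, standard error 0.22, adjusted p = 0.0808, edgeR), and Nr1d2 the reverse (log2 ratio 1.04, 2.06-fold, standard error 0.46, adjusted p = 0.339, edgeR). Nr1d2 was called without replica 1 or without replica 2 of P cells at day −2, and in a fit of the day 1 libraries alone. The P libraries of day −2 are not part of this comparison and enter it through the spread shared by all conditions. Per3 (0.69, adjusted p = 0.211, edgeR), Clock (0.32, adjusted p = 0.743), Cry1 (−0.29, adjusted p = 0.456), Cry2 (−0.24, adjusted p = 0.75) and Dbp (−0.63, adjusted p = 0.649) were not called.

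**Figure D3:**
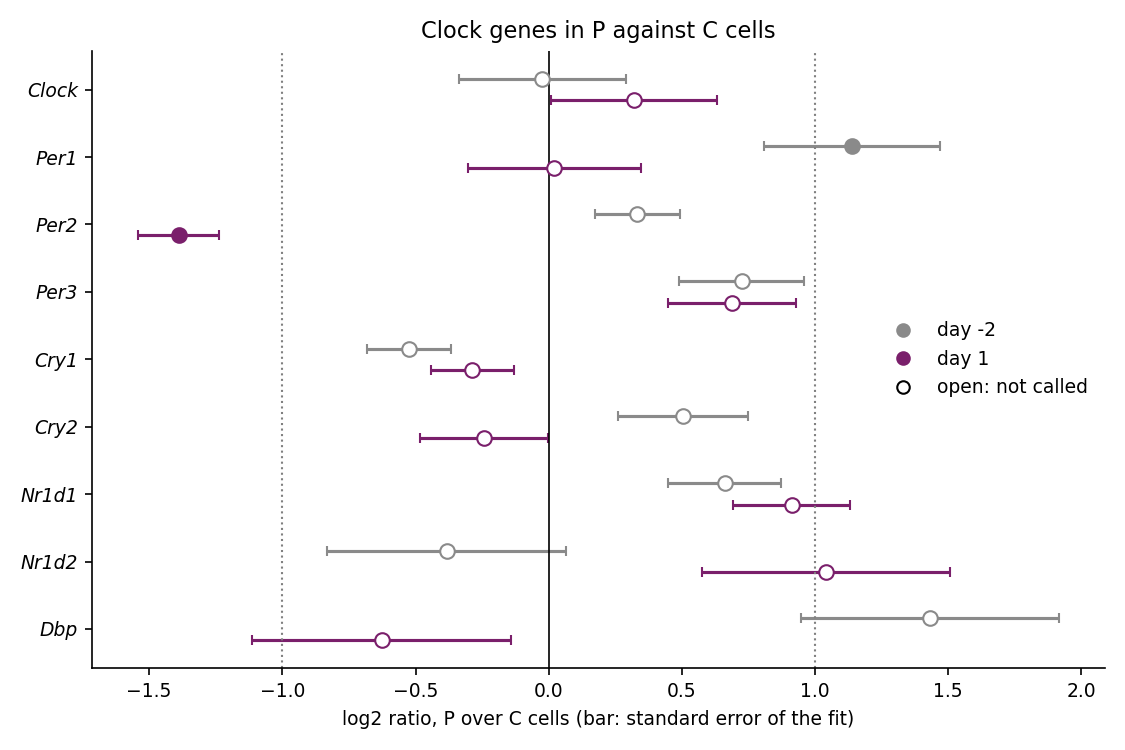
Log2 ratio of P over C cells for the 9 tested clock genes at day −2 and at day 1. Points are the fitted ratios, error bars 1 standard error of the fit, dotted lines a ratio of 2 or 0.5, and filled points are called genes. Per1 is called at day −2, at 1.14, and lies at 0.02 at day 1, whereas Per2 lies at 0.33 at day −2 and is called at −1.39 at day 1.

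The wider clock was described by a list of 25 genes that act with the members, of which 24 were tested and Hlf was not. In C cells edgeR called 3 higher with induction and 0 lower, with 9 of 24 at an unadjusted p under 0.05, and DESeq2 likewise called 3 higher and 0 lower. In P cells 2 were called higher and 2 lower, and in P against C cells 3 and 1 before induction and 2 and 2 after it. For the edgeR calls, the shares of all tested genes are those given for the members. None is given here for the counts at an unadjusted p or with DESeq2. No interaction was called by edgeR, with 6 of 24 at an unadjusted p under 0.05, and DESeq2 called 4, all lower: Bhlhe40, Nfil3, Tef and Usp2. Counts over all tested genes also moved without single libraries and are given with the processing. The wider counts that follow are therefore not read as particular to the clock. Over all libraries left out in turn the wider genes called ran from 0 to 16 for the interaction, 3 to 4 for induction in C cells, 2 to 7 in P cells, and 1 to 8 and 1 to 6 in P against C cells before and after induction. Each highest count was reached without replica 2 of P cells at day −2, and those for induction in C cells and for day 1 without other libraries as well.

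The gene that makes the partner of CLOCK, Arntl, was not called in any comparison. Before induction it had 44.2 and 48.1 CPM in the C replicas and 17.9 and 34.8 CPM in the P replicas, and after it 31.0 and 30.7 CPM (C) and 25.6 and 26.1 CPM (P). P replicas lay below C replicas on both days. The ROR receptors oppose REV-ERB on Arntl. Rora had 1.36 and 1.02 CPM (C) and 5.11 and 6.96 CPM (P) before induction, and 3.28 and 3.14 CPM (C) and 11 and 10.9 CPM (P) after it. No pair of conditions overlapped. Rora was 5.07-fold higher in P cells at day −2 (log2 ratio 2.34, adjusted p = 0.00523, edgeR), a call lost in a fit of the day −2 libraries alone (adjusted p = 0.137). At day 1 the log2 ratio was 1.77 (adjusted p = 0.0155, edgeR), a call lost without any one of the 4 libraries of day 1 (adjusted p between 0.15 and 0.176). Induction raised it in C cells (log2 ratio 1.43, adjusted p = 0.00948, edgeR).

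Rorb, a ROR receptor gene as well, was near the floor in most libraries. It had 8 and 4 counts (C) and 9 and 24 counts (P) before induction, and 14 and 12 (C) and 71 and 93 (P) after it. Rorb was higher in P than in C cells at day 1 (log2 ratio 2.83, adjusted p = 0.0252, edgeR), a call lost without any one of the libraries of day 1. It rose with induction in P cells (log2 ratio 2.43, adjusted p = 0.012, edgeR), which was lost without replica 2 of P cells at day 1.

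Repressors of the E-box activity of CLOCK and BMAL1 are encoded by Bhlhe40, Bhlhe41 and Ciart. Bhlhe40 had 102 and 104 CPM (C) and 65.2 and 47.8 CPM (P) before induction, and 128 and 132 CPM (C) and 34.1 and 30.9 CPM (P) after it. P cells lay lower on both days without overlap. Like Per2 it was called lower in P cells at day 1, 4.00-fold (log2 ratio −2.00, adjusted p = 0.00407, edgeR), and this call stood in all 19 alternatives. Ciart was lower in P cells at day 1 as well, with 6.0 and 5.22 CPM in C and 2.18 and 2.80 CPM in P cells (log2 ratio −1.17, adjusted p = 0.0661, edgeR), a call lost without any one of 6 libraries, all but those of P cells at day −2 (adjusted p between 0.153 and 0.481). Bhlhe41 fell with induction in P cells (log2 ratio −1.98, adjusted p = 0.0143, edgeR), which was lost without replica 1 of P cells at day 1 (adjusted p = 0.122).

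Nfil3, whose product opposes DBP on D-box elements, had 33.1 and 31.2 CPM (C) and 34.3 and 52.1 CPM (P) before induction, and 266 and 252 CPM (C) and 184 and 160 CPM (P) after it. Every library of day 1 lay above every library of day −2. It rose 8.05-fold in C cells (log2 ratio 3.01, adjusted p = 0.000288, edgeR) and by a log2 ratio of 1.99 in P cells (adjusted p = 0.0016, edgeR), in all 19 alternatives. Tef, which acts with DBP on the same elements, was higher in P cells at day −2 (log2 ratio 1.08, adjusted p = 0.0156, edgeR). The Tef call was lost without replica 1 or 2 of C cells at day −2 (adjusted p = 0.186 and 0.179), without replica 1 of P cells (log2 ratio 0.91), with library totals (0.87) and with the day −2 libraries alone.

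The remaining calls in the wider list were few. Usp2, a deubiquitinase gene that follows the clock, rose in C cells (log2 ratio 1.27, adjusted p = 0.00604, edgeR) and was higher in P cells at day −2 (1.55, adjusted p = 0.00985, edgeR), a call lost without replica 1 or 2 of C cells at day −2 (adjusted p = 0.102 and 0.145) and in a fit of the day −2 libraries alone (adjusted p = 0.176). Fbxl21, a ubiquitin ligase subunit gene acting on CRY, was lower in P cells at day −2 (−1.86, adjusted p = 0.067, edgeR), on 10 to 56 counts at that day, and the call was lost without any one of 6 libraries (adjusted p between 0.132 and 0.462) and in the day −2 libraries alone (adjusted p = 0.273). The Fbxl21 call held without either P replica of day −2, in fits that leave 1 library in that condition. Timeless fell in P cells with induction (−1.57, adjusted p = 0.0568, edgeR), from 177 and 61.2 CPM to 43.2 and 37.2 CPM. Without replica 1 of P cells at day −2 its log2 ratio was −0.62, and the call was lost without any one of the C libraries of day −2 (adjusted p = 0.111) or the P libraries of day 1 (adjusted p = 0.211 and 0.262), and in the P libraries alone (adjusted p = 0.189).

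**Figure D4:**
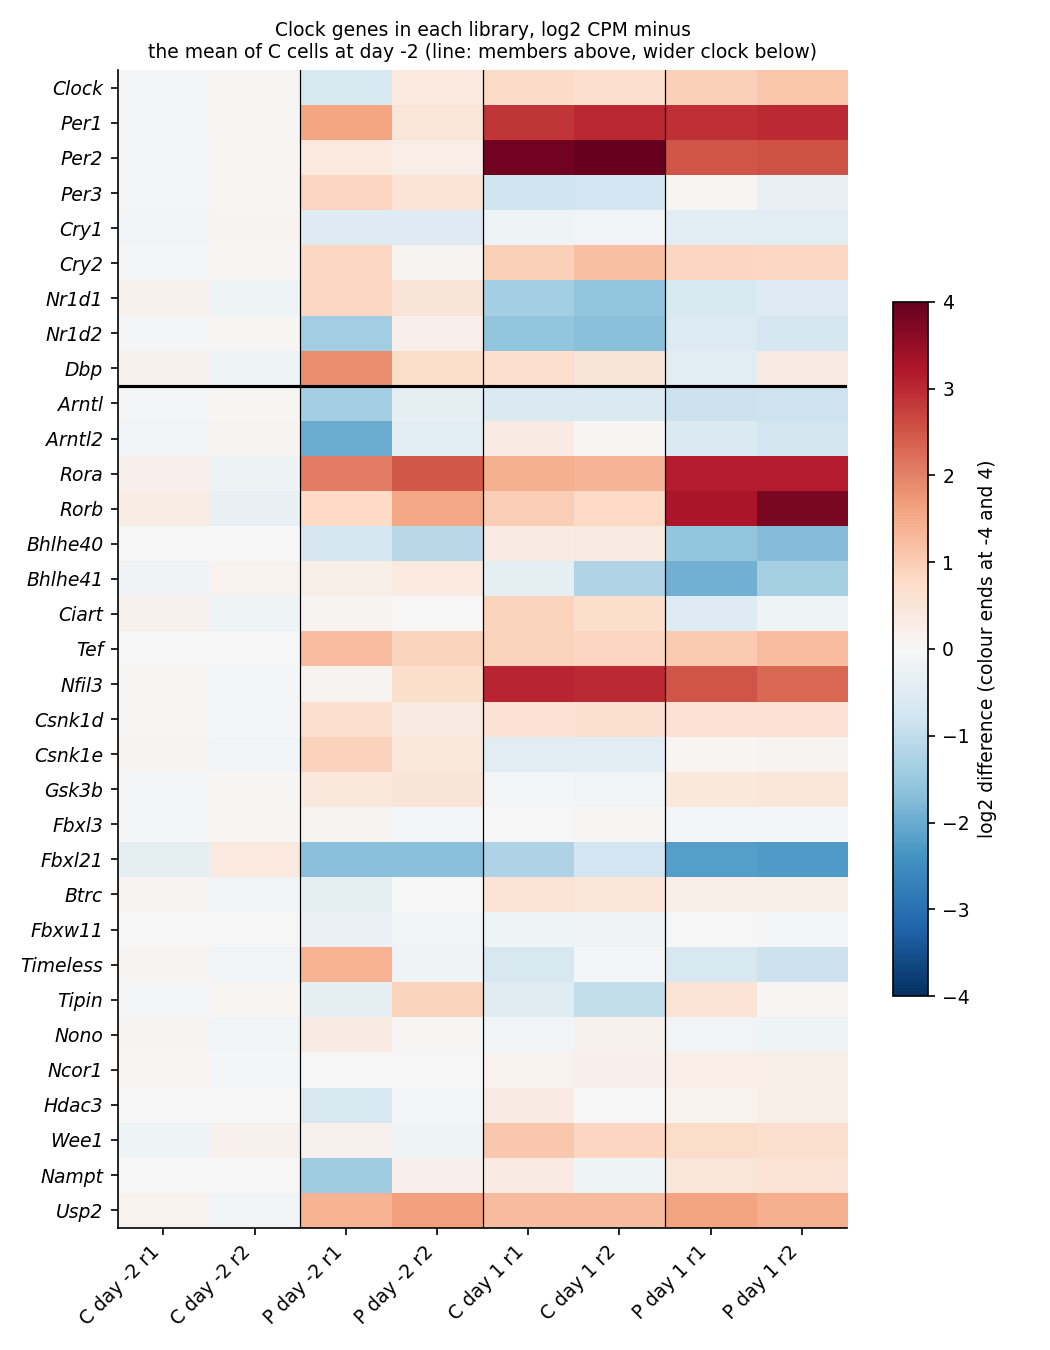
Log2 level of the clock members and of the wider clock genes in each library, relative to the mean of C cells at day −2, with libraries as columns, genes as rows, and red for higher and blue for lower. The 9 tested members stand above the line and the 24 tested wider clock genes below it. Per1, Per2 and Nfil3 are raised in all 4 libraries of day 1, and Rora is raised and Bhlhe40 lowered in all 4 P libraries.

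Genes known to answer the inducers were counted beside the Period genes. Their lists were chosen with earlier results of these data known, so the counts are not an independent measure of the stimulus. Of 5 glucocorticoid targets, 4 were called higher with induction in C cells, and 4 again in P cells, beside 10.7% and 7.65% of all tested genes. Of 5 cAMP targets, 5 were called higher in C and 2 in P cells. All 5 had a log2 ratio above 0 in P cells as well. The interaction was called, lower, for 1 of the 5, Nr4a1 (−2.01, adjusted p = 0.0388, edgeR), beside 1.93% of all tested genes. At day 1 none of the 5 was called between P and C cells. The counts of calls are therefore not read as a difference in response. Of these cAMP targets, 3 were also called higher in P than in C cells at day −2, before any inducer, beside 4.83% of all tested genes.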

How the data were processed

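The members and gene lists were chosen with earlier results of these data known. The authors removed artifacts from Ion Torrent reads, aligned them to mm9 with TopHat2 2.0.9 and deposited whole-number read counts per NCBI gene, without normalization. The submitters' processing notes also name DESeq. How reads on more than 1 gene, or on either strand, were counted is not given in the sources used here. Symbols came from RefSeq (GRCm38.p6) for 23929 of 24013 genes, and 84 had none. Its positions served only to find genes that overlap a member, and no coordinates or sequences are printed. Exon lengths were not used here, so levels are not compared between genes.

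The tools were edgeR 4.0.16, limma 3.58.1 and R 4.3.3. filterByExpr on the 4 conditions left 13339 genes. After TMM scaling (factors 0.837 to 1.08), all 8 libraries entered 1 quasi-likelihood model without a block, with 1 mean for each condition. The scripts were tested on simulated data. Tests are two-sided. Thresholds are an adjusted p under 0.1 and a ratio over 2 or under 0.5, and for the interaction the first alone. Log2 CPM has a prior count of 2. The depth was 20428816 to 27614353 counts per library.

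All 10 members are named, with the called genes of the wider list, Arntl, and for each tested member the 2 most similar genes with a mean of at least 50 counts. Of these genes, 1 of the wider list and 1 of the most similar are not reported here. Alternatives were DESeq2 1.42.0, scaling by its size factors or by library totals, no filter or 10 counts in every library, the conditions of a comparison alone, the replica number as a block, an adjusted p under 0.05, no ratio threshold, each library left out, and 2 crossed blocks added after seeing the data.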

Additional observations from a re-analysis of the deposited data

Results flagged for a closer look

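Per2 responded less to induction in P than in C cells, by a log2 ratio of −1.72 in the interaction test of edgeR, so its effect differed between the cell types in the fit to all libraries. Per2 rose in both, from 4.86 ± 0.394 to 74.4 ± 4.42 CPM (SD, n = 2) in C cells and from 6.13 ± 0.445 to 28.4 ± 0.322 CPM (SD, n = 2) in P cells. The interaction call of Per2 was lost in 6 of 17 alternative settings, each with 1 library left out. Groups of 2 libraries cannot be tested for a sample far from the others.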

How the results depend on the processing

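In each comparison the number of clock genes called moved with some settings, and the cause was not tested unless the setting itself gives it. For induction in P cells, 5 became 3 in a fit of the P libraries alone and 3 at an adjusted p under 0.05. For P against C cells at day −2, 1 became 2 with DESeq2, and 0 with its size factors in edgeR, with library totals, with the day −2 libraries alone and at an adjusted p under 0.05. For day 1, 1 became 2 with library totals, with the day 1 libraries alone and without a ratio threshold. Without single libraries the members called numbered 3 to 5 for induction in C cells and 3 to 5 in P cells, 0 to 3 and 0 to 2 for P against C cells at day −2 and day 1, and 0 to 6 for the interaction. A condition left with 1 library is assumed to vary like the others.

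Over all genes, 2723 calls for induction in C cells became 4743 without a ratio threshold. For P cells, 2406 became 1213 in the P libraries alone and 4192 without a ratio threshold. At day −2, 931 became 81 in its libraries alone, 602 at an adjusted p under 0.05 and 1513 without a ratio threshold, and at day 1, 542 became 899 and 820 in its libraries alone and without a ratio threshold. The interaction, 316 calls, gave 930 with DESeq2 and 174 at an adjusted p under 0.05. Without single libraries these counts ran from 1664 to 3329, 1248 to 5000, 188 to 4380, 63 to 994 and 32 to 8395, the highest without replica 1 of P cells at day −2 for induction in C cells and for day 1, and without its replica 2 for the others. A fit of single conditions and the lack of a ratio threshold do not apply to the interaction.

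With library totals the all-gene median of the log2 ratio was −0.12, 0.20, −0.18, 0.11 and 0.29 in the order above. Calls then split into 1288 higher and 1074 lower for induction in P cells, against 1020 and 1386, and at day −2 into 453 and 365, against 644 and 287. The interaction gave 86 and 186, against 58 and 258.

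The replica numbers were not shown to pair the libraries: correlations of deviations between same-numbered libraries were 0.209 for C and P cells at day −2 and between −0.355 and −0.0523 for the other pairs of conditions. With the number as a block, the all-gene calls were 597 at day −2 and 117 for the interaction, Per1 at day −2 left 0 members called, and Dbp in P cells was lost (log2 ratio −1.38, adjusted p = 0.138, edgeR). Of the wider genes, Fbxl21 at day −2 (adjusted p = 0.128, edgeR) and Ciart at day 1 (adjusted p = 0.152, edgeR) were lost, and no other call of a member or wider gene was. With the numbers of P cells at day 1 crossed, added after seeing the data, the block left 148 interaction calls and 0 members called at day −2.

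Directions that turned belonged to values that were not called in the fit to all libraries. Without replica 2 of P cells at day −2, Nr1d2 at day −2 and the interaction of Clock passed the thresholds. Without single libraries, induction of Nr1d2 in P cells ran from −0.82 (without replica 1 of P cells at day −2) to 0.81 (without replica 2). Nr1d2 in P against C cells at day −2 ran from −1.41 without replica 2 of P cells to 0.21 without replica 1. Clock at day −2 ran from −0.65 without replica 2 of P cells to 0.41 without replica 1, with 0.03 without replica 2 of C cells, and its interaction from −0.11 without replica 1 of P cells at day −2 to 0.97 without replica 2. Per1 at day 1 was −0.004 with DESeq2 and with its size factors, −0.001 without replica 1 of P cells at day −2 and −0.019 without replica 2 of P cells at day 1, and ran from −0.092 to 0.096 without replica 1 or 2 of C cells at day 1. The interaction of Per3 was 0.27 with library totals, ran from −0.24 to 0.13 without replica 1 or 2 of P cells at day 1, and was 0.03 and 0.11 without replica 1 of C or of P cells at day −2.

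Depth limits Npas2, which is near 3 counts, and Dbp, which rests on 22 to 93 counts per library. Among the called wider genes it limits Rorb, with 4 to 24 counts outside P cells at day 1, and Fbxl21, with 7 to 56 counts.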

Other observations

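For each tested clock gene, the genes with the most similar course over the 8 libraries were found by the root mean square difference of log2 CPM after each gene's own mean was subtracted, among 10904 genes with a mean of at least 50 counts. The values describe these 8 libraries, which hold 4 conditions, and say nothing of shared control. The courses nearest to Clock were those of Lamtor2 (0.0788 log2 units) and Hbp1 (0.0983). Per1 was nearest to Hoxd3 (0.12) and Nfatc4 (0.183), and Per3 to Ammecr1 (0.125) and Gtse1 (0.13). For Per2 the nearest were Gem (0.309) and Arsj (0.355), while Per2 itself varied around its mean by 1.61. The other tested members varied by 0.219 (Cry1) to 1.3 (Per1). Differences are not scaled to this variation, so they are not compared between members. Cry1 was nearest to Stk4 (0.0773) and Zfp91 (0.084), and Cry2 to Asap3 (0.0536). Nr1d1 was nearest to Irs1 (0.116), the gene of an insulin receptor substrate, and to Mettl1 (0.167). Nr1d2 was nearest to Fam111a (0.132) and Ddias (0.192), and Dbp to Fam72a (0.213) and Il11 (0.247).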
